A study of Rattus norvegicus with 24 samples.

Results

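Gene expression in the cerebellum of undosed Long Evans rat pups was compared between postnatal day (PND) 7 and PND14, the week in which many cerebellar granule cells leave the cell cycle and are wired into circuits. The comparison used 5 of the 24 arrays of the series: 3 at PND7, from pups of dams 1, 7 and 13, and 2 at PND14, from pups of dams 1 and 7. It is the difference in deposited log2 value, PND14 minus PND7, of each probe set, and its rule leaves out the 1 PND14 array, of dam 13, whose median value is above 7.7. The rule uses no expression change, but the comparison, its rule and the gene lists were chosen with earlier results of these data known.

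The series measured cerebellum and hippocampus on Affymetrix rat arrays in 8 groups of 3, formed by tissue, age and dosing of the mother, and addresses how Aroclor 1254, a commercial mixture of polychlorinated biphenyls, affects the developing brain. Undosed mothers were gavaged with corn oil alone (0 mg/kg/day), and dosed mothers with Aroclor 1254 at 6 mg/kg/day in that oil, in both cases from gestation day 6. All pups are labelled male, 1 pup per litter was taken at each age, and the PND7 and PND14 pups of a dam are different littermates. Used here are undosed cerebellum at PND7 (3 pups) and PND14 (2 pups) and dosed cerebellum (3 and 3 pups, dams 12, 15 and 18). Undosed hippocampus (3 and 3 arrays, dams 1, 7 and 13) is used too. With 1 pup per litter at each age, its arrays share pups with undosed cerebellum of the same dam and age. The main fit takes all arrays as independent. With so few pups, p-values rest on a spread estimated over all 23 arrays fitted.

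In the rat, the cerebellum grows mainly after birth. Granule cell precursors divide in the external granular layer under the control of Sonic hedgehog from Purkinje cells, leave the cycle, send out parallel fibres, and migrate along Bergmann glia to the internal granular layer. There they take up mossy fibre input, while Purkinje cells grow their dendritic trees, climbing fibre input is pruned and oligodendrocytes wrap axons in myelin. Thyroid hormone sets the pace of much of this programme.

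The array left out had a median of 7.908, against 7.42 to 7.483 in the other 23 arrays, and correlated with them at r of 0.623 to 0.659. Fitting it in, after quantile normalization of all 24 arrays, turned the sign of 22 of the 236 called genes that are named here, Eno2, Neurod1 and Shank3 among them. Among the 5 arrays kept, r was 0.996 within each age and 0.978 to 0.983 between ages. Xist, the non-coding RNA of the inactive X chromosome and a mark of female tissue, read 10.76 in the PND14 array of dam 1 and 10.52 in the PND7 array of dam 13, although both pups are labelled male. It read 4.07 to 4.18 in the other 3. The pups with high Xist lie 1 in each age group, the same holds in undosed hippocampus, and counts are therefore also given without those 4 arrays, which leaves 2 arrays against 1 in cerebellum, with the spread of the lone PND14 array assumed to be that of the other groups. The log2 ratio of 3′ to 5′ probe sets, a measure of RNA integrity, was 0.53 to 0.6 for Gapdh at PND7 and 0.48 to 0.5 at PND14, and 0.64 to 0.68 and 0.74 to 0.76 for actin. For 26 genes of other organs, a guide to signal without expression, the median over genes was 5.36 and the highest 7.9. In whole-tissue RNA, fewer cells of a type and less RNA per cell cannot be told apart.

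Of 10330 probe sets tested, 3188 (30.9%) were called with limma at a Benjamini-Hochberg adjusted p under 0.05, 53.5% of them higher at PND14. That share depended on normalization. It was 46.6% after quantile normalization of the same arrays and 64.6% when all 24 arrays were quantile normalized and fitted. By gene, with 1 probe set representing each of 7474 genes, 1151 (15.4%) rose and 1147 (15.3%) fell, and the median change over all genes was -0.02. Rises reached further than falls. A log2 change of at least 1 was seen in 139 genes that rose and 52 that fell, and a change of at least 2 in 18 genes that rose and in no called gene that fell. The PND14 arrays did not overlap the PND7 arrays in 1150 of the genes that rose and 1144 of those that fell. But this also holds for 65.1% of all genes and 64.4% of all probe sets tested. Lack of overlap, where given below, is therefore a description of called genes and adds no support to a call. The number of genes called was 1045 without the 4 arrays of high Xist, and 1496 and 1327 without the PND14 array of dam 1 or dam 7 alone.

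Single-array values below are log2 values in the order dams 1, 7 and 13 at PND7, then dams 1 and 7 at PND14, and changes are differences of group means on the log2 scale with the limma standard error (SE, 3 against 2 arrays). Pvalb, the calcium buffer parvalbumin of Purkinje cells and molecular layer interneurons, read 6.4, 6.54 and 6.61 at PND7 and 10.39 and 10.74 at PND14. Both PND14 values stood far above all PND7 values, a rise of 4.04 ± 0.22 or 16.5-fold (limma adjusted p 6.93e-11). Gabra6, the α6 subunit of the GABA-A receptor that marks settled granule cells, read 6.78, 6.63 and 6.48, then 10.49 and 10.68. The age groups were again wide apart, and Gabra6 rose by 3.96 ± 0.28 or 15.5-fold (limma adjusted p 2.17e-09). At PND7 both genes read within the range of the genes of other organs, so their folds rest on a starting level near that of signal without expression. The same limit holds for every value below 7.9 printed here, such as the PND7 values of Synpr, Gabrd, Olfm3, Mog, Fat2 and Hr and the PND14 values of Rprm.

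Other large rises came from synapses and myelin. Mobp, a protein of compact myelin, read 7.22, 8.16 and 7.65, then 10.57 and 10.93, and rose 8.41-fold. Synpr, the synaptic vesicle protein synaptoporin, read 6.41, 6.17 and 6.39, then 9.52 and 9.13, and rose by 3.0 ± 0.28. The PND7 spread of Mobp, with dam 1 lowest, was much wider than that of Synpr, yet neither gene's ages overlapped. Grm4, the presynaptic metabotropic glutamate receptor of parallel fibres, rose by 2.78 ± 0.35, and Nptx1, a secreted pentraxin that gathers AMPA receptors, by 2.78 ± 0.22. Olfm3, a secreted olfactomedin protein, rose by 2.46 ± 0.33. Il16, whose neuronal form is a PDZ protein of cerebellar granule cells, read 8.13, 8.2 and 8.13, then 10.36 and 10.72. Its PND7 arrays were nearly equal and its rise of 2.39 ± 0.11 had the smallest adjusted p of the genes with the 15 largest rises (limma adjusted p 7e-12).

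The remaining 7 of the 15 largest rises lay between 2.2 and 2.39. They were Mog, Mag and Ugt8 of myelin, Atp2a3, a calcium pump of the endoplasmic reticulum, Grin2c, an NMDA receptor subunit, Gabrd, the δ subunit of the GABA-A receptor, and Slc17a7, the vesicular glutamate transporter VGLUT1. Their single values are described with their groups.

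**Figure D1:**
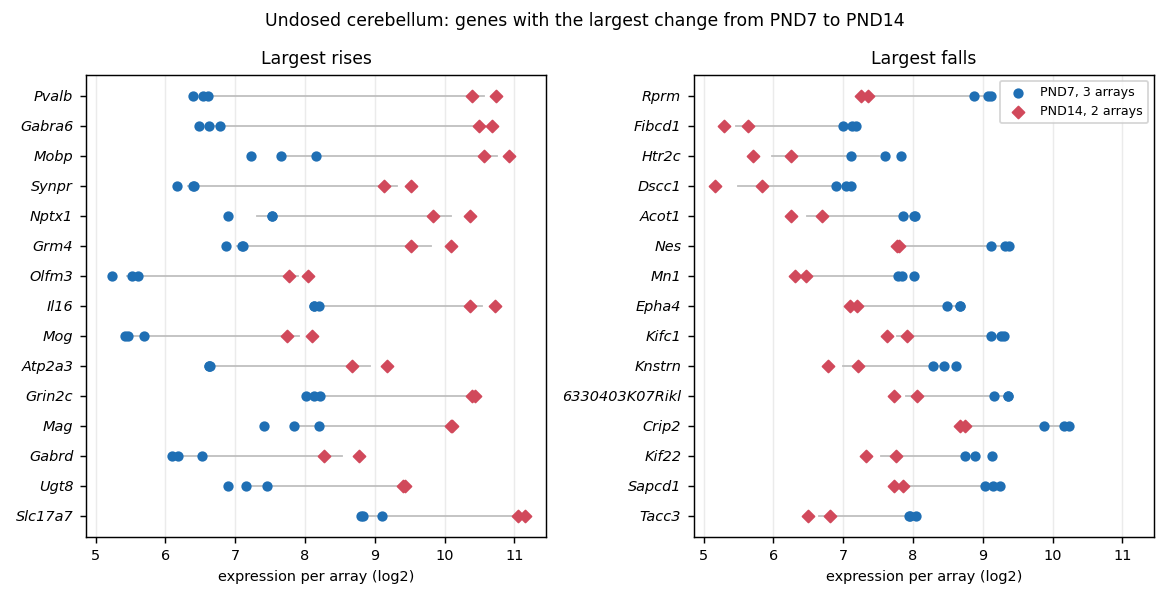
Log2 value in each of the 5 arrays for the 15 genes with the largest called rises (left) and the 15 with the largest called falls (right), each dot an array coloured by age and the grey line joining the means of the age groups. Rises run up to 4.04 for Pvalb and falls down to -1.71 for Rprm. The 30 genes were taken from those whose ages do not overlap.

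The largest fall was in Rprm, reprimo, a p53 target that holds cells in G2, which read 9.07, 8.87 and 9.12 at PND7 and 7.36 and 7.25 at PND14. The ages were clearly apart, a fall of 3.28-fold (log2 change -1.71 ± 0.18, limma adjusted p 2.66e-07). Nes, nestin, the intermediate filament of neural progenitors and radial glia, read 9.32, 9.12 and 9.38, then 7.8 and 7.77. Both PND14 arrays sat more than 1 log2 unit below every PND7 array, with a change of -1.49 ± 0.1. Epha4, a receptor for ephrins in axon guidance, read 8.68, 8.49 and 8.68, then 7.2 and 7.09, and changed by -1.47 ± 0.13. Mn1, a transcriptional cofactor, changed by -1.49 ± 0.09 (limma adjusted p 6.21e-10).

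Of the 15 largest falls, 5 were genes of cell division or DNA replication: Dscc1, which helps load the replication clamp (-1.52 ± 0.17), the spindle motor Kifc1 (-1.45), the kinetochore protein Knstrn (-1.45), the chromosome-binding motor Kif22 (-1.38) and the spindle protein Tacc3 (-1.32). The remaining ones were Fibcd1, an endocytic receptor for acetylated sugars (-1.64 ± 0.17), Acot1, an acyl-CoA thioesterase (-1.5), Crip2 (-1.38), 6330403K07Rikl (-1.4), Sapcd1 (-1.35) and Htr2c. Htr2c, the serotonin 2C receptor, is abundant in choroid plexus and changed by -1.54 ± 0.39 (limma adjusted p 0.00436). Its array values were 7.11, 7.6 and 7.83, then 5.7 and 6.25, with the lowest in the same PND14 array of dam 1 that was lowest for choroid plexus markers. The call of Htr2c was lost without that array (-1.26) and without the arrays of high Xist (-1.11).

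Proliferation genes fell as a group. Of 28 mitosis genes tested (32 on the array), 28 fell and 0 rose, against 15.3% and 15.4% of all genes, with a median change of -0.89. Kif22 read 9.13, 8.74 and 8.89, then 7.75 and 7.33, and changed by -1.38 ± 0.18. Tacc3 read 8.05, 7.95 and 7.94, then 6.81 and 6.5, and changed by -1.32 ± 0.19. In both genes the PND14 array of dam 7 was the lowest of all, and the ages did not overlap. Cdkn3, a phosphatase that acts on CDK2 (-1.3 ± 0.23), and Ccnb2, a mitotic cyclin (-1.24 ± 0.21), followed, and the smallest change of the list was the -0.49 of Cks1b. The summed level of the 32 mitosis genes, as a percent of its PND7 mean, was 98.1 to 102 at PND7 and 57.8 and 48.8 at PND14. Without the PND14 array of dam 7 the median change of the list was -0.76. Leaving out the arrays of high Xist, 24 of the 28 were called, all lower.

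Of 24 genes of DNA replication, 20 fell and 0 rose, with a median of -0.68, and all 24 were lower at PND14. Rrm1, the large subunit of ribonucleotide reductase, read 9.67, 9.41 and 9.66, then 8.54 and 8.19, and changed by -1.22 ± 0.15. Mcm3, a subunit of the replicative helicase, read 8.97, 8.63 and 8.96, then 7.71 and 7.75, and changed by -1.13 ± 0.14. PND14 values lay well under the lowest PND7 value in both. The helicase subunits Mcm6 (-1.21) and Mcm2 (-1.03) fell too. Without the PND14 array of dam 7 the list median was -0.6. Leaving out the arrays of high Xist, 18 replication genes fell.

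The promoters of 5 of these genes are shown because the members of the 2 lists moved together and some carry short motifs known from cell cycle genes. The promoters shown are those of the largest falls among members that hold the motifs marked below, 17 mitosis and 9 replication genes. They run from 250 bases before to 20 after the transcription start, 5′ to 3′ on the gene's strand, from RefSeq on the rat build GRCr8. For the mitosis genes the capitals mark the cell cycle homology region, CHR (TTTGAA), and the CCAAT box (CCAAT), on either strand. For the replication genes they mark the E2F site TTCCCGC on either strand. None of these motifs contains another.
Kif22: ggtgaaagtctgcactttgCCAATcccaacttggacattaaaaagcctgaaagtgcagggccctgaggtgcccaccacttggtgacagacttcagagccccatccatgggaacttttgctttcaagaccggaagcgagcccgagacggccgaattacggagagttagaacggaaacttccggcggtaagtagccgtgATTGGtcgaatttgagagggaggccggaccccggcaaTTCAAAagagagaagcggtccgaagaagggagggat
Tacc3: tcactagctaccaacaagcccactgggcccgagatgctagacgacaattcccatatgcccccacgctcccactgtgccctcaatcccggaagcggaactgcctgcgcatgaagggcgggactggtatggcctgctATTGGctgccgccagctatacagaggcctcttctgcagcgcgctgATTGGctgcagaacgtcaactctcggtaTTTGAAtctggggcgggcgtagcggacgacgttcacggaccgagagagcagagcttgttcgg
Cdkn3: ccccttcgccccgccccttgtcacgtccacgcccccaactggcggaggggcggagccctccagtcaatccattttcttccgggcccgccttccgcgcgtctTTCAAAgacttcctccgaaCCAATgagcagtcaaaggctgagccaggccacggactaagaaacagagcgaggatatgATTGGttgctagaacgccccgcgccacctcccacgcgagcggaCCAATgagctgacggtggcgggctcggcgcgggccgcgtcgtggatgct
Rrm1: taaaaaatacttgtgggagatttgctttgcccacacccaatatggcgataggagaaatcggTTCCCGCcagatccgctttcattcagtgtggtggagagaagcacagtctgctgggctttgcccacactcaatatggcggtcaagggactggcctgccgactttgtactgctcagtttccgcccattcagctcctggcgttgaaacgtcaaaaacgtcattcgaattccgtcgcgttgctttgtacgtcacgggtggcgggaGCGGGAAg
Mcm3: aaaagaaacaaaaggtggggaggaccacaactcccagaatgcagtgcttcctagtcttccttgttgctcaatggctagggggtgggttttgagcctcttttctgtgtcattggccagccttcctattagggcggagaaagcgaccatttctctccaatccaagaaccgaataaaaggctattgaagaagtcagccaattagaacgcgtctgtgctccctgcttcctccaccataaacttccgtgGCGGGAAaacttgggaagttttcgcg

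The windows lie at chr1:191080859-191081128 on the minus strand (Kif22), chr14:81289679-81289948 on the minus strand (Tacc3), chr15:22502136-22502405 on the plus strand (Cdkn3), chr1:166235654-166235923 on the plus strand (Rrm1) and chr9:30733727-30733996 on the minus strand (Mcm3). In Kif22 the CHR begins at -16 and a CCAAT box at -53, and in Tacc3 the CHR begins at -42 and CCAAT boxes at -70 and -115. In Cdkn3 the CHR lies further out, at -149, and CCAAT boxes at -130, -72 and -29. Searched over the full 300-base windows, 18 of 25 mitosis promoters (72.0%) held a CHR, against 10.5% of 6266 promoters of genes tested and 18.1% of all 27457 promoters in the table. A CCAAT box stood in 84.0% of the mitosis promoters, 60.9% of the replication promoters and 38.2% of those of genes tested. The E2F site stood in 9 of 23 replication promoters (39.1%), in 0 of 25 mitosis promoters and in 8.22% of those of genes tested, and a variant, TTGGCGC, in 21.7%, 12.0% and 4.55%. Of 959 promoters of genes that fell, 13.3% held a CHR and 10.8% the E2F site. Of 934 promoters of genes that rose, 7.6% and 5.78% did. A match of letters is a description and not evidence that a factor binds there.

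Genes that mark dividing granule cell precursors moved the same way with fewer members. Of 11 tested, 8 fell and 1 rose, with a median of -0.65. Ccnd1, the D cyclin driven by Sonic hedgehog in these cells, read 9.52, 9.2 and 9.59, then 8.22 and 8.14. Its ages were well apart and it changed by -1.26 ± 0.2. Ccnd2, the other D cyclin (-0.83 ± 0.14), and Mycn, the proto-oncogene of the same pathway (-0.65 ± 0.13), fell as well. So did Cxcr4, the receptor that holds precursors near the meninges (-0.88 ± 0.16), the Wnt antagonist Sfrp1 (-0.91 ± 0.17) and the transcription factor Sox4 (-0.68 ± 0.13). The remaining falls were in Barhl1 (-0.54 ± 0.19) and Sox11 (-0.43 ± 0.16). Barhl1 was not called without the PND7 array of dam 7 or 13, nor Sox11 without any 1 PND7 array. The list had 6 falls without the PND7 array of dam 7 or 13. Zic1, a zinc finger factor that granule cells keep after division, was the member that rose (7.89, 8.05 and 7.96, then 9.06 and 8.81; 0.97 ± 0.21). Without the arrays of high Xist 6 members fell and 0 rose, and Sfrp1 (-0.63) and Zic1 (0.84) were not called.

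The Sonic hedgehog, Notch and BMP pathways were mostly lower, with 8 of 16 members falling, 1 rising and a median of -0.41, and 5 falling and 0 rising without the arrays of high Xist. The member that rose, Id2 (0.47 ± 0.16), was not called once any 1 of the 5 arrays was left out (0.42 to 0.5) or with the dam as a block (0.39). Smo, the transducer of hedgehog signals, read 8.08, 7.84 and 8.05, then 7.28 and 7.44, and changed by -0.63 ± 0.09. Notch1, the receptor that keeps progenitors undifferentiated, read 8.5, 8.69 and 8.63, then 7.31 and 7.52, and changed by -1.19 ± 0.12. Both genes were lower in each PND14 array. Id1 (-0.85 ± 0.15) and Id3 (-0.97 ± 0.17), inhibitors of basic helix-loop-helix factors and targets of BMP, fell too. Of 18 chromatin genes typical of precursors, 11 fell and 0 rose, with a median of -0.4. They were led by the nuclear lamin Lmnb1 (-1.16 ± 0.12), the Polycomb methyltransferase Ezh2 (-0.79 ± 0.14) and the histone chaperones Nasp (-0.65) and Ssrp1 (-0.62). Leaving out the PND14 array of dam 7 left 7 chromatin calls, as did leaving out the arrays of high Xist.

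Cell cycle inhibitors did not move as 1 group: of 9 tested, 2 rose and 2 fell (22.2% each), against 15.4% and 15.3% of all genes. Cdkn1b, p27, which takes granule cell precursors out of the cycle, rose by 0.57 ± 0.13, and Btg1, an antiproliferative factor, by 0.59 ± 0.15. Gadd45g (-0.78 ± 0.13) and Cdkn1c, p57 (-0.88 ± 0.27), fell. Cdkn1b was not called without the PND14 array of dam 1 (0.44), and Cdkn1c without either PND14 array (-0.91 and -0.85) or the PND7 array of dam 13 (-0.73). The list then had 1 fall, and also 1 rise without the PND14 array of dam 1. Of these genes Gadd45g was still called without the arrays of high Xist (Btg1 0.59, Cdkn1b 0.4).

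Markers of mature granule cells rose. Of 18 tested, 14 rose (77.8%) and 0 fell, with a median of 1.32. Beside Gabra6, Slc17a7 read 8.8, 9.11 and 8.83, then 11.06 and 11.16, and rose 4.6-fold. Gabrd read 6.09, 6.52 and 6.18, then 8.27 and 8.78, and rose by 2.26 ± 0.25. Both genes were far higher in each PND14 array than in any PND7 array. Fat2, a giant cadherin of parallel fibres, read 7.4, 7.37 and 7.67, then 9.46 and 9.7, and rose 4.29-fold. Cadps2, which primes dense-core vesicles in granule cells (1.46 ± 0.22), Vsnl1, a calcium sensor (1.33 ± 0.2), Kcnk1, a two-pore potassium channel (1.31 ± 0.13), and Camk4, a nuclear calcium kinase (0.94 ± 0.11), were intermediate. Cbln1, the synaptic organiser that parallel fibres release onto Purkinje cells, read 11.18, 11.27 and 11.31, then 11.95 and 11.98 (0.71 ± 0.22), and was not called without the PND14 array of dam 1 (0.72) or dam 7 (0.69). The summed level of the 19 markers was 95.5 to 105 percent of its mean at PND7 and 197 and 205 percent at PND14, and 13 still rose without the arrays of high Xist.

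Genes of migrating and young neurons were divided. Of 20 tested, 6 rose (30.0%) and 4 fell (20.0%), against 15.4% and 15.3% of all genes, with a median of -0.03. Neurod1, a factor granule cells need on leaving the cycle, read 11.87, 12.15 and 11.79, then 12.61 and 12.52, and rose by 0.63 ± 0.13. Unc5b, a netrin receptor, rose by 0.64 ± 0.13 (0.5 and not called without the arrays of high Xist). Dpysl5, a collapsin response mediator of growing axons, read 10.61, 10.55 and 10.71, then 9.66 and 9.7, and fell by 0.94 on the log2 scale. In each of these genes the ages were apart. Nhlh1 (0.42 ± 0.15) and Astn1 (0.53 ± 0.18) rose too. Nhlh1 was not called without any 1 PND7 array, nor Astn1 without the PND7 array of dam 1 or 13. Tubb3, the β-tubulin of young neurons (-0.43 ± 0.09), Dpysl3 (-0.67 ± 0.22) and the surface protein Cd24 (-0.41 ± 0.13) fell, but Dpysl3 (-0.53) and Cd24 (-0.19) not without the PND14 array of dam 7, nor Dpysl3 without the PND7 array of dam 1 (-0.63) or dam 7 (-0.64). These small changes depended on single arrays: 3 genes rose without the PND14 array of dam 1 or the PND7 array of dam 1, 2 rose and 2 fell without the PND14 array of dam 7, and 1 rose and 3 fell without the arrays of high Xist.

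Purkinje cell markers rose in 14 of 18 tested and fell in 2, with a median of 0.57. Slc1a6, the glutamate transporter EAAT4 of Purkinje dendrites, read 8.19, 8.62 and 8.43, then 10.15 and 10.46, and rose 3.71-fold. Pcp2, a modulator of G proteins in Purkinje cells, read 10.75, 11.11 and 10.93, then 12.01 and 12.24, and rose by 1.19 ± 0.12. PND14 values of both were far above the PND7 range. Homer3, a scaffold of metabotropic receptors (1.22 ± 0.22), Inpp5a, an inositol phosphatase (1.07 ± 0.09), Itpr1, the inositol trisphosphate receptor (1.04 ± 0.12), and Cacna1g, a T-type calcium channel (0.89 ± 0.11), rose by about 1 unit. Calb1, calbindin (0.66 ± 0.1), Gad1, which makes GABA (0.58 ± 0.1), and Car8 (0.57 ± 0.12), the carbonic anhydrase-like protein lost in waddles mice, rose less, and Car8 was not called without the arrays of high Xist (0.41).

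The Purkinje markers that fell were Lhx1, a LIM factor of early Purkinje cells (8.27, 7.91 and 8.14, then 7.73 and 7.38; -0.55 ± 0.13), and the peptide Cck (-0.37 ± 0.1). Neither was called without the PND14 array of dam 7 (-0.37 and -0.34), and Cck not without the PND7 array of dam 1 (-0.28). Itpka, a kinase of dendritic spines (0.39 ± 0.13), rose with all 5 arrays but was not called without the PND14 array of dam 1 (0.41) or dam 7 (0.36) or the PND7 array of dam 1 (0.35) or dam 7 (0.36). Scn4b, a sodium channel subunit (0.54 ± 0.15), was not called without either PND14 array (0.52 and 0.56). Leaving out the arrays of high Xist, 10 Purkinje markers rose and 2 fell. Of 8 markers of inhibitory interneurons tested, 1 rose (12.5%) and 2 fell (25.0%), with a median of 0.0. Their members called were Slc32a1, the vesicular GABA transporter (0.3 ± 0.1), the peptide Npy (-0.48 ± 0.17) and the receptor Grm2 (-0.56 ± 0.16). Slc32a1 was lost without either PND14 array (0.37 and 0.24) or the PND7 array of dam 7 (0.23), Npy without the PND14 array of dam 1 (-0.24) or the PND7 array of dam 1 (-0.46) or 7 (-0.43), and Grm2 without the PND14 array of dam 7 (-0.49).

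**Figure D2:**
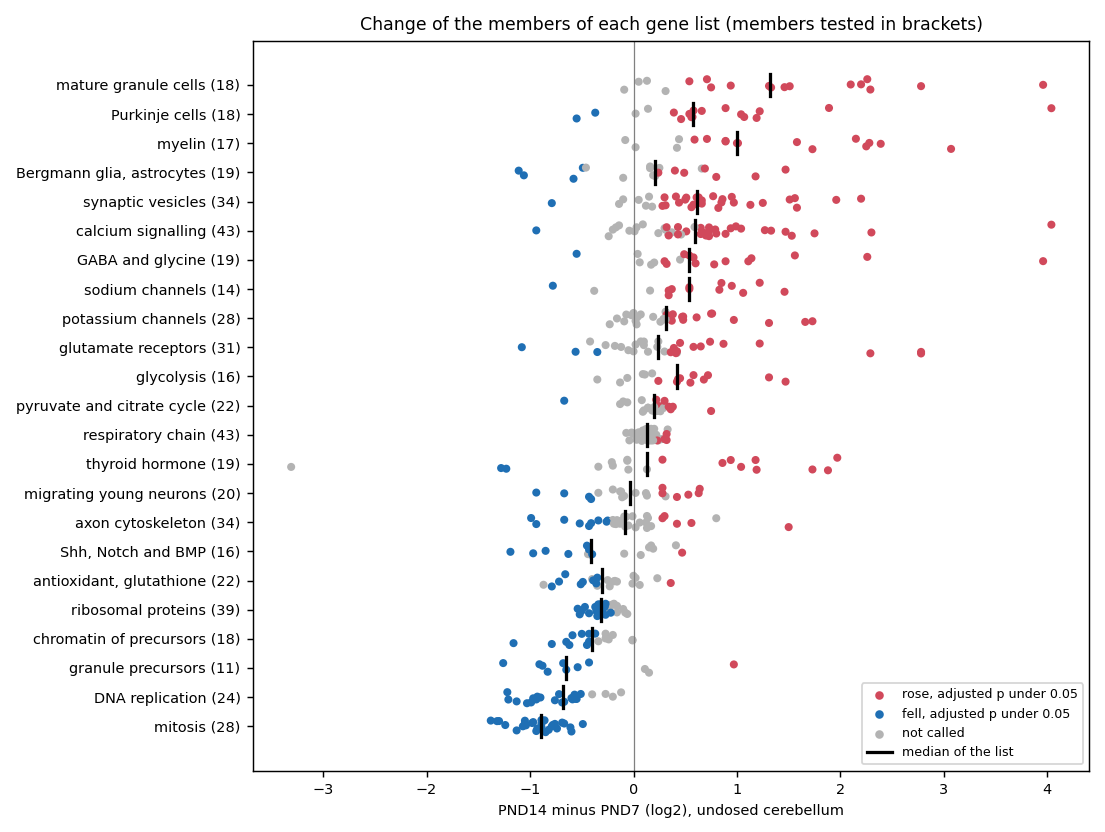
Change in log2 value from PND7 to PND14 in undosed cerebellum for the members of 23 gene lists, each dot a gene coloured by whether it was called higher, called lower or not called, with the list median as a black bar and the number of members tested in brackets. Myelin, mature granule cell and synaptic vesicle genes lie mostly above 0 (medians 1.0, 1.32 and 0.62), while mitosis and replication genes lie below it (medians -0.89 and -0.68).

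Genes of inhibitory signalling mostly rose. Of 19 genes of GABA and glycine signalling tested, 13 rose and 1 fell, with a median of 0.54. Beside Gabra6 and Gabrd, Gabrb2 read 8.46, 8.32 and 8.25, then 9.79 and 10.01, and rose by 1.56 ± 0.13. These encode α6, δ and β2 subunits, which assemble in granule cells. Gabra4 rose by 0.78 ± 0.15, and Gphn, the scaffold gephyrin, by 0.6 ± 0.13. Gabbr2, a subunit of the GABA-B receptor, read 9.97, 9.66 and 9.56, then 10.53 and 10.71 (0.89 ± 0.13). Glrb, the β subunit of the glycine receptor, rose by 1.14 ± 0.18, while Glra2, the α subunit of immature neurons, read 6.84, 7.05 and 7.14, then 6.36 and 6.56, and fell by 0.55 on the log2 scale. Glra2 was not called without the PND14 array of dam 1 (-0.46) or the PND7 array of dam 13 (-0.49).

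Both chloride carriers rose. Slc12a5, KCC2, which exports chloride and makes GABA inhibitory, read 10.52, 10.41 and 10.45, then 11.48 and 11.65 (1.11 ± 0.12, 2.15-fold). Slc12a2, NKCC1, which imports it, read 9.6, 9.82 and 9.64, then 10.2 and 10.26 (0.54 ± 0.1). Each gene was higher in both PND14 arrays than in any PND7 array, and the larger rise was that of Slc12a5. Of the 19 genes 8 rose and 0 fell without the arrays of high Xist, and Gabra4 (0.57) and Gphn (0.46) were not called.

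Glutamate receptors and their partners rose in 13 of 31 tested and fell in 3, with a median of 0.24. Grm4 read 7.1, 6.87 and 7.11, then 9.52 and 10.09, and Nptx1 6.89, 7.52 and 7.52, then 9.83 and 10.36. Grin2c, the NMDA receptor subunit of mature granule cells, read 8.13, 8.22 and 8.02, then 10.43 and 10.39, and rose 4.88-fold. All 3 genes were more than 2 log2 units higher at PND14. The obligate subunit Grin1 rose by 0.87 ± 0.11. Grin2b, the subunit of immature receptors, read 7.29, 7.16 and 7.41, then 7.13 and 7.08, and Grin2a 7.2, 6.98 and 7.0, then 7.0 and 6.87. Neither was called (-0.18 ± 0.14 and -0.12 ± 0.11), and both read within the range of genes of other organs. Among scaffolds, Shank3 (0.74 ± 0.1), Dlg3 (0.58 ± 0.1) and Shank2 (0.45 ± 0.09) rose, but Shank2 was not called with the median of its probe sets.

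Grm3, a metabotropic receptor found on glia, fell most (8.9, 8.98 and 9.11, then 7.9 and 7.94; -1.08 ± 0.13), and Grik2, a kainate receptor subunit, rose by 0.65 ± 0.13 (0.54 and not called without the arrays of high Xist). Dlg4, PSD-95, rose by 0.39 ± 0.11 but was not called without the PND14 array of dam 1 (0.4) or dam 7 (0.38), and its sign turned when the median of its probe sets was taken (-0.06). The vesicular transporters went opposite ways, Slc17a7 up by 2.2 ± 0.15 and Slc17a6, VGLUT2, down by 0.79 on the log2 scale (8.53, 9.02 and 8.82, then 8.08 and 7.93; SE 0.24). Slc17a6 was not called without either PND14 array (-0.86 and -0.71) or the PND7 array of dam 7 (-0.67). Of the glutamate genes 9 rose and 2 fell without the arrays of high Xist.

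**Figure D3:**
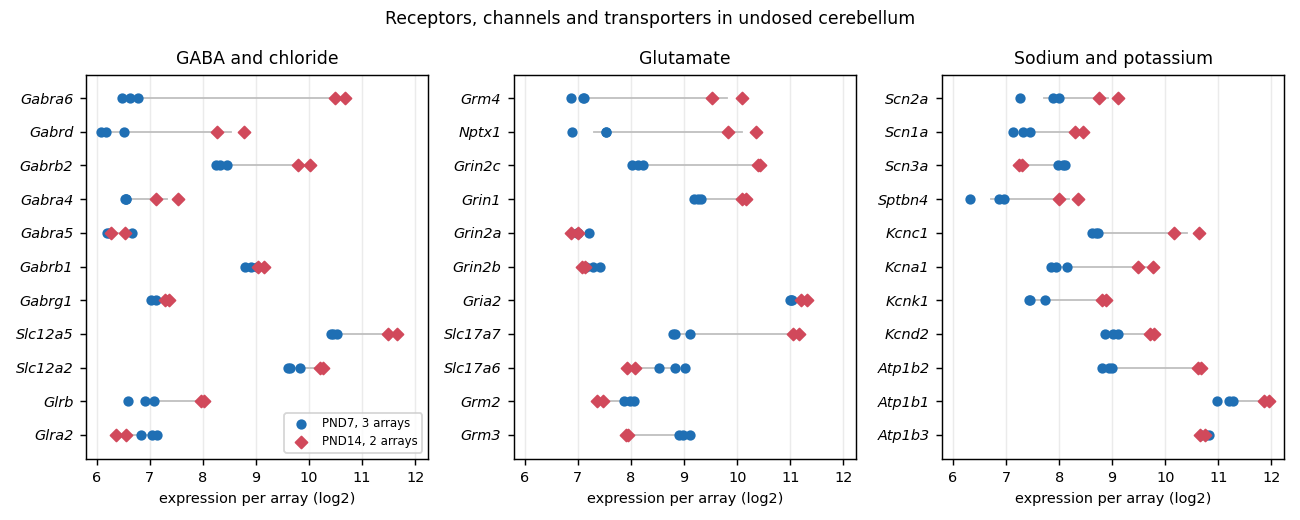
Log2 value in each of the 5 arrays for 33 genes of GABA, glycine and chloride transport (left), of glutamate signalling (middle) and of sodium channels, potassium channels and the sodium pump (right), coloured by age. Gabra6, Grm4 and Atp1b2 lie far higher at PND14, Grin2a and Grin2b overlap or nearly overlap between ages, and Scn3a, Slc17a6 and Grm3 lie lower at PND14.

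Ion channels followed. Of 14 genes of sodium channels and the axon initial segment, 11 rose and 1 fell, with a median of 0.54. Scn1a, an adult sodium channel, read 7.14, 7.45 and 7.32, then 8.29 and 8.44 (1.06 ± 0.15), and Scn3a, the embryonic one, 8.07, 8.11 and 7.98, then 7.3 and 7.24 (-0.78 ± 0.19). Their ages did not overlap in either direction. Scn2a (1.22 ± 0.21), Sptbn4, the βIV spectrin of nodes (1.46 ± 0.16), and Cntnap1, a paranodal protein (0.95 ± 0.15), rose. Without the arrays of high Xist 6 rose and 1, Scn3a, fell. Of 28 potassium channel genes, 13 rose and 0 fell, with a median of 0.31. Kcnc1, Kv3.1, which allows fast spiking, read 8.61, 8.73 and 8.69, then 10.17 and 10.64 (1.73 ± 0.28). Kcna1, Kv1.1, read 7.84, 8.15 and 7.95, then 9.49 and 9.77 (1.66 ± 0.12). Both channels were far higher in each PND14 array, as was Kcnip4, an accessory subunit (0.97 ± 0.12). Leaving out the PND14 array of dam 7 left 8 potassium channel genes that rose, and leaving out the arrays of high Xist left 7.

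Of 7 genes of the sodium pump tested, 3 rose. Atp1b2, the β2 subunit of granule cells and astrocytes, read 9.0, 8.93 and 8.81, then 10.61 and 10.67, a rise of 1.73 ± 0.08 (limma adjusted p 1.04e-11). Fxyd7, a regulator of the pump (1.37 ± 0.25), and Atp1b1 (0.75 ± 0.11) rose too. The 3 called members had no overlap between ages, which also holds for 65.1% of all genes tested.

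Calcium handling genes rose in 27 of 43 and fell in 1, with a median of 0.59. The fall was in Ncald, neurocalcin δ (-0.94 ± 0.15). Atp2a3, SERCA3, a pump that is strong in Purkinje cells, read 6.64, 6.63 and 6.63, then 8.68 and 9.18 (2.3 ± 0.17). Hpcal1, a calcium sensor, read 9.58, 9.64 and 9.56, then 11.2 and 11.48 (1.75 ± 0.18). Both had almost no spread at PND7 and no overlap between ages. Atp2b3, a plasma membrane calcium pump (1.53 ± 0.14), and Cacnb3, a channel subunit (0.7 ± 0.09), also rose. Camk2b, the β subunit of CaM kinase II, rose (0.73 ± 0.09), while Camk2a was not called (5.75, 6.16 and 5.65, then 6.31 and 6.57; 0.59 ± 0.33). Leaving out the arrays of high Xist, 24 rose and 1 fell.

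Synaptic vesicle and release genes rose in 27 of 34 tested and fell in 1, Slc17a6, with a median of 0.62. Unc13c, Munc13-3, the priming factor of granule cells, read 7.5, 7.19 and 7.38, then 9.19 and 9.43 (1.96 ± 0.17). Syt4, a synaptotagmin, read 8.63, 8.99 and 8.91, then 10.42 and 10.43 (1.58 ± 0.14), and Vamp1, a vesicle SNARE, 8.97, 9.13 and 8.86, then 10.47 and 10.61 (1.56 ± 0.13). All 3 were clear of their PND7 values in both PND14 arrays. The summed level of 40 such genes on the array was 97.7 to 103 percent of its mean at PND7 and 162 and 170 percent at PND14. Of the 34 tested, 20 rose and 0 fell without the arrays of high Xist.

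Myelin genes rose in 13 of 17 tested and fell in 0, with a median of 1.0. Mag, an adhesion protein of the inner myelin wrap, read 7.41, 8.2 and 7.84, then 10.09 and 10.1 (2.28 ± 0.33), and Mog, a protein of the outer wrap, 5.47, 5.69 and 5.42, then 7.74 and 8.1 (2.39 ± 0.35). Ugt8, which makes galactosylceramide, read 6.9, 7.46 and 7.15, then 9.4 and 9.44 (2.25 ± 0.34). In Mag, Ugt8 and Mobp the PND7 pup of dam 1 was lowest and that of dam 7 highest, while the PND14 arrays nearly coincided in Mag and Ugt8 and lay further apart in Mobp. Mbp, myelin basic protein, had the same order (10.95, 11.86 and 11.42, then 13.09 and 13.18; 1.73 ± 0.29). Mal, a raft protein (2.15 ± 0.26), Cldn11, the claudin of myelin (1.58 ± 0.34), and Tspan2 (1.01 ± 0.14) rose by 1 unit or more. Cnp, an enzyme of early oligodendrocytes (0.89 ± 0.26), was not called without either PND14 array (0.91 and 0.87), nor Aspa, the enzyme lost in Canavan disease (0.71 ± 0.19), and Gsn, gelsolin (0.59 ± 0.13), without that of dam 7 (0.66 and 0.43). Myelin genes that rose numbered 10 without the arrays of high Xist.

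Oligodendrocyte precursor markers did not rise. Of 6 tested 2 fell, Pdgfra, the PDGF receptor of these cells (-0.5 ± 0.17), and Cspg4, NG2 (-0.48 ± 0.14). Cspg4 was lost without the PND14 array of dam 1 (-0.45), and Pdgfra without either PND14 array (-0.51 and -0.49) or the PND7 array of dam 7 or 13 (-0.47 in both), or with the dam as a block (-0.51). Of 19 markers of astrocytes and Bergmann glia, 7 rose (36.8%) and 4 fell (21.1%), with a median of 0.21. Aldoc, aldolase C, which is also found in Purkinje cell stripes, read 11.0, 11.33 and 11.05, then 12.55 and 12.63 (1.47 ± 0.14), and Aqp4, the water channel of astrocyte endfeet, 9.39, 10.0 and 9.61, then 10.83 and 10.87 (1.18 ± 0.2). Aldh1l1, a folate enzyme (-1.06 ± 0.12), and Vim, vimentin, an intermediate filament of immature glia (-1.11 ± 0.16), fell. The other falls were in Gdf10, a TGF-β family member of Bergmann glia (-0.49 ± 0.15), and Gja1, connexin 43 (-0.58 ± 0.2), neither called without the PND14 array of dam 1 (-0.45 and -0.47) or dam 7 (-0.54 and -0.69) or the PND7 array of dam 7 (-0.42 and -0.54), nor Gja1 without that of dam 13 (-0.5). The direction of a glial marker thus differed by gene. Without the PND14 array of dam 1 or dam 7, 4 glial markers rose and 2 fell, without the PND7 array of dam 13 4 rose, without that of dam 7 2 fell, and without the arrays of high Xist 4 rose and 2 fell.

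Of 13 microglia markers tested 1 fell, the lysosomal protein Laptm5 (7.7, 7.86 and 7.66, then 7.38 and 7.37; -0.36 ± 0.11), and 0 rose. Its call was lost without either PND14 array (-0.37 and -0.35) or the PND7 array of dam 7 (-0.3), and without the arrays of high Xist (-0.41). The summed level of the 17 markers was 97.6 to 105 percent of its mean at PND7 and 96.1 and 91.1 percent at PND14.

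Endothelial, meningeal, choroid plexus and red cell markers read lower at PND14, whereas of 7 mural cell markers of vessels 0 were called by limma, and 0 at an unadjusted p under 0.05, with a median of -0.1. The summed level of the 12 mural cell markers on the array was 95.4 to 105 percent of its mean at PND7 and 97.0 and 92.0 percent at PND14. Of 12 endothelial markers 4 fell and 0 rose, with a median of -0.28. They were Kdr, the VEGF receptor of growing vessels (9.31, 9.32 and 9.47, then 8.59 and 8.58; -0.78 ± 0.16), Podxl (-0.46 ± 0.11), the tight junction protein Cldn5 (-0.43 ± 0.11) and the lipid transporter Mfsd2a (-0.36 ± 0.08). Without the PND14 array of dam 7 Cldn5 (-0.38) and Mfsd2a (-0.29) were lost and 2 remained. Of 21 meningeal and fibroblast markers 10 fell and 0 rose, all 21 being lower, with a median of -0.5. Fbln1, fibulin-1 (-0.81 ± 0.17), and Islr (-0.74 ± 0.13) were called with any 1 array left out, whereas the collagens Col1a2 (-0.79 ± 0.29) and Col3a1 (-0.75 ± 0.27) were lost without the PND14 array of dam 1 (-0.69 and -0.77) or dam 7 (-0.88 and -0.72), without the PND7 array of dam 13 (-0.65 and -0.69), Col3a1 without that of dam 1 (-0.72), and Col1a2 without that of dam 7 (-0.8) or with the dam as a block (-0.75). The count fell to 3 without the PND14 array of dam 1, to 5 without that of dam 7 or the PND7 array of dam 13, and to 2 without the arrays of high Xist.

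Of 7 choroid plexus markers 4 fell, Sostdc1 (-1.32 ± 0.47), Folr1, the folate receptor (-0.8 ± 0.21), Aqp1 (-0.4 ± 0.14) and Kcne2 (-0.39 ± 0.14), with a median of -0.71. Ttr, transthyretin, the defining product of choroid plexus, was not called and read 12.84, 13.45 and 13.11, then 7.36 and 12.28 (-3.31 ± 1.59, limma adjusted p 0.12). The value of dam 1 at PND14 thus lay within the range of the genes of other organs (highest 7.9, upper quartile 6.28). That of dam 7 was close to PND7. The summed level of the 11 markers was 80.0 to 120 percent of its mean at PND7 and 12.8 and 58.5 percent at PND14. No choroid plexus gene was called without the PND14 array of dam 1 (Sostdc1 -1.04, Folr1 -0.65, Aqp1 -0.19, Kcne2 -0.25) or without the arrays of high Xist, and 1 was called without the PND7 array of dam 7 or 13. With the dam as a block Aqp1 (-0.42) and Kcne2 (-0.4) were not called. The 6 red cell markers summed to 86.5 to 116 percent at PND7 and 47.9 and 59.4 percent at PND14. Of 4 red cell genes tested, the globins Hba-a3 (-0.98 ± 0.31) and Hbb (-0.93 ± 0.34) fell, and neither did without either PND14 array (-0.82 and -1.15 for Hba-a3, -0.75 and -1.1 for Hbb) or the PND7 array of dam 7 (-0.89 and -0.82), nor Hbb without that of dam 13 (-0.92). The part of these tissues in the falls of Htr2c and of genes they share with the cerebellum was not tested. Markers of forebrain neurons, for their part, summed to 99.0 to 101 percent at PND7 and 89.5 and 94.8 percent at PND14.

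**Figure D4:**
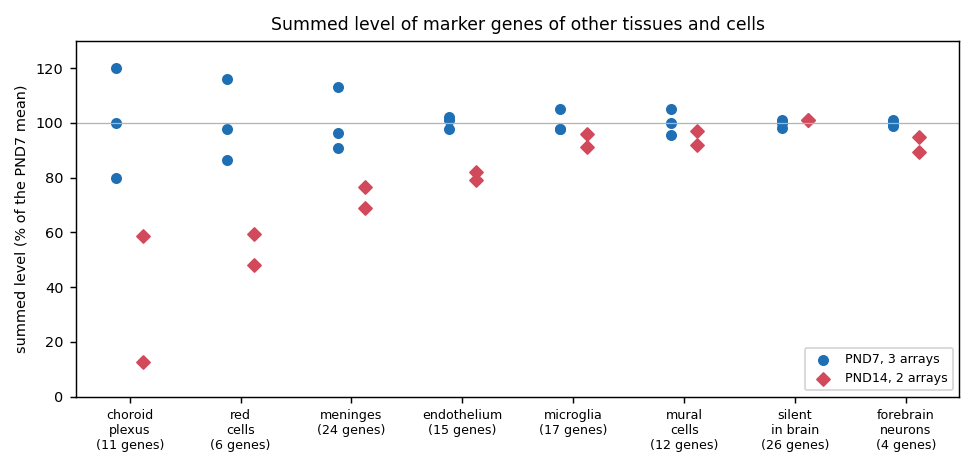
Summed linear level of the markers of 8 tissues or cell types in each array, as a percent of the PND7 mean, with the axis starting at 0. Choroid plexus markers drop to 12.8 percent in the PND14 array of dam 1 and 58.5 percent in that of dam 7, red cell and meningeal markers are lower in both, and microglia, mural cell and silent gene sums stay between 91.1 and 105 percent.

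Of 23 growth factor genes 3 rose (13.0%) and 6 fell (26.1%), against 15.4% and 15.3% of all genes. Ntf3, neurotrophin 3 of granule cells, read 7.28, 7.15 and 7.0, then 8.09 and 7.92 (0.86 ± 0.15). Ngfr, the p75 neurotrophin receptor of precursors, read 8.92, 8.65 and 8.58, then 7.38 and 7.49 (-1.28 ± 0.12). A trophic factor and a receptor of the neurotrophin family thus moved in opposite directions, each without overlap. Receptors of the family that rose were Ntrk3, which binds Ntf3 (0.71 ± 0.12), and Ntrk2 (0.29 ± 0.1), the latter not called without either PND14 array (0.26 and 0.31) or the PND7 array of dam 7 or 13 (0.24 and 0.29). Mdk, midkine (-0.88 ± 0.16), and Igf1 (-0.71 ± 0.12) fell. Of 22 axon guidance genes 4 rose (18.2%) and 6 fell (27.3%), led by Sema4d, a semaphorin of oligodendrocytes (5.82, 6.51 and 6.0, then 7.59 and 7.85; 1.62 ± 0.2), Epha4 and Plxnb1, the receptor of Sema4d (-0.77 ± 0.11). Plxna1 (0.55 ± 0.16) and Plxna2 (0.28 ± 0.08), semaphorin receptors, and Unc5b rose, and the plexins were not called without the PND14 array of dam 7 (0.48 and 0.25). Leaving out that array left 2 guidance genes that rose, and leaving out the arrays of high Xist 1 that rose and 5 that fell.

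Of 13 matrix genes 2 rose (15.4%) and 3 fell (23.1%), and 1 rose and 1 fell without the arrays of high Xist. The shares that rose in these lists were near that of all genes. Spock1, testican-1, a proteoglycan of neurons, read 6.68, 6.58 and 6.44, then 8.75 and 8.7 (2.16 ± 0.14), while Tnc, tenascin-C (10.69, 10.36 and 10.56, then 9.33 and 9.27; -1.23 ± 0.32), Agrn, agrin (-0.92 ± 0.12), and Vcan, versican (-0.91 ± 0.2), fell. The 4 genes showed no overlap, as did 65.1% of all genes tested. Tnc (-1.25) and Vcan (-0.83) were not called without the arrays of high Xist. Sparcl1, a secreted SPARC-like protein of astrocytes, rose by 0.24 ± 0.08 and was not called with the dam as a block (0.22). Spock1 remained the 1 matrix gene that rose without either PND14 array or the PND7 array of dam 1 or 13. Of 34 cytoskeletal genes 5 rose (14.7%) and 9 fell (26.5%). Tuba4a, an α-tubulin of mature axons, rose (8.56, 9.04 and 8.98, then 10.24 and 10.48; 1.5 ± 0.15), and Nefm, the medium neurofilament, fell (10.3, 10.21 and 10.23, then 9.17 and 9.34; -0.99 ± 0.12). Ina, α-internexin, the early member of that family, was not called (-0.07 ± 0.12), nor was Nefh, the late one (8.93, 9.31 and 9.34, then 9.98 and 10.0; 0.8 ± 0.32). Map1a, a dendritic microtubule protein (0.56 ± 0.12), Tubb2a (0.42 ± 0.13), and the stathmins Stmn2 (0.28 ± 0.09) and Stmn3 (0.3 ± 0.09) rose too, of which Map1a and Tuba4a alone were called without the PND14 array of dam 1 (Tubb2a 0.33, Stmn2 0.25, Stmn3 0.29). Stmn2 and Stmn3 were lost without that of dam 7 (both 0.31), and Tubb2a with the dam as a block (0.36). The cytoskeletal counts were 2 higher without the PND14 array of dam 1, 3 higher and 4 lower without that of dam 7, 3 higher without the PND7 array of dam 1, and 2 higher and 5 lower without the arrays of high Xist.

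Genes of energy metabolism did not move as 1 group. Of 16 glycolysis genes 10 rose and 0 fell, with a median of 0.42. Eno2, the neuronal enolase, read 9.29, 9.48 and 9.23, then 10.63 and 10.65 (1.31 ± 0.12), and both PND14 arrays were over 1 unit above all PND7 arrays. The phosphofructokinases Pfkm (0.72 ± 0.1) and Pfkp (0.68 ± 0.1) rose too, and 8 of the 16 rose without the arrays of high Xist. Of 22 genes of pyruvate use and the citric acid cycle 7 rose and 1 fell, Got1, an aspartate aminotransferase (0.75 ± 0.12), most and Idh2, the NADP-dependent mitochondrial isocitrate dehydrogenase (-0.67 ± 0.12), in the other direction. Idh3b (0.38 ± 0.1) was lost without the PND14 array of dam 1 (0.36), and Idh3a (0.36 ± 0.12) without either PND14 array (0.32 and 0.39) or the PND7 array of dam 7 (0.3). The rises in this list numbered 1 without the PND14 array of dam 1 or without the arrays of high Xist, and 4 without the PND14 array of dam 7 or the PND7 array of dam 1.

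Of 43 genes of the respiratory chain 4 rose (Ndufa4, Cox8a, Uqcrc2 and Cox6c, by 0.32, 0.32, 0.3 and 0.23) and 0 fell, a share under the 15.4% of all genes. With either PND14 array left out 1 rose, Cox8a, and without the arrays of high Xist none of these 4 was called (0.32, 0.31, 0.28 and 0.2), nor was Cox6c with the dam as a block (0.2). Among 16 genes of ketone and creatine use, Ckmt1, the mitochondrial creatine kinase, read 8.43, 8.73 and 8.46, then 9.69 and 9.62 (1.12 ± 0.14), and the creatine transporter Slc6a8 (0.48 ± 0.1) rose. Oxct1, which activates ketone bodies (0.46 ± 0.13), was lost without either PND14 array (0.42 and 0.49), and Acadl, an acyl-CoA dehydrogenase (-0.77 ± 0.14), fell. In that list 4 rose (25.0%) and 2 fell (12.5%), with Ckb, the brain creatine kinase, among the rises (0.39 ± 0.09). The other fall was in Acat1, a thiolase of ketone breakdown (-0.36 ± 0.12), which was not called once any 1 of the 5 arrays was left out (-0.3 to -0.43). Of 18 genes of cholesterol synthesis 4 rose (22.2%, against 15.4% of all genes) and 0 fell. The rises were in Sc5d (0.83 ± 0.17) and Idi1 (0.79 ± 0.23), enzymes of the pathway, Tm7sf2 (0.43 ± 0.12) and Insig1, its feedback regulator (0.3 ± 0.11). Of these 1 rose, Sc5d, without the PND14 array of dam 1 (Idi1 0.68, Tm7sf2 0.43, Insig1 0.33) or the arrays of high Xist, and 2 without the PND14 array of dam 7.

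Of 22 antioxidant and glutathione genes 8 fell and 1 rose, with a median of -0.3. The rise was in Prdx5, a peroxiredoxin (0.36 ± 0.1; 0.33 and not called without the PND14 array of dam 1). Gstm1, a glutathione transferase, read 9.91, 9.98 and 9.78, then 9.25 and 8.94 (-0.79 ± 0.14), and fell most of the list, with no overlap of ages. Mgst1 (-0.72 ± 0.24), Gpx1, a glutathione peroxidase (-0.66 ± 0.18), and Gstp1 (-0.51 ± 0.19) were lost without the PND14 array of dam 7 (-0.38, -0.58 and -0.46), which left 2 falls. Mgst1 was also lost without the PND7 array of dam 1 (-0.67) or 13 (-0.69), and Gstp1 without the PND14 array of dam 1 (-0.57) or the PND7 array of dam 7 (-0.46) or 13 (-0.49). There were 5 without the PND14 array of dam 1 and 4 without the PND7 array of dam 13 or without the arrays of high Xist.

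Ribosomal protein genes were all lower and by little. Of 39 tested 27 fell and 0 rose, with a median of -0.31. Rpl14 read 11.35, 11.3 and 11.34, then 10.85 and 10.74 (-0.54 ± 0.09), and Rpl12 11.54, 11.55 and 11.46, then 11.06 and 10.93 (-0.52 ± 0.1). Rpl22 (-0.5 ± 0.1) and Rps15 (-0.47 ± 0.08) were close to them, and in these 4 genes dam 7 at PND14 was lowest. The number of falls was 6 without that array and 11 without the arrays of high Xist, and the list median stayed below 0 with any 1 array left out.

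Targets and partners of thyroid hormone rose in 9 of 19 and fell in 2, with a median of 0.13. Klf9, a Krüppel-like factor and direct target, read 8.02, 8.53 and 8.37, then 10.26 and 10.29 (1.97 ± 0.14, 3.91-fold). Hr, hairless, a corepressor and direct target, read 6.66, 6.92 and 6.82, then 8.61 and 8.76 (1.88 ± 0.25, 3.68-fold). Both direct targets stood far above PND7 in each PND14 array. Mbp, Pcp2, Itpr1, Ntf3, Camk4 and Dbp, which belong to other lists too, were among the rises, and the falls were in Ngfr and Tnc. Thra, the receptor α gene, was not called (10.74, 10.85 and 10.65, then 10.7 and 10.69; -0.05 ± 0.12). Rises numbered 8 and falls 1 without the arrays of high Xist.

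Genes of the circadian clock and glucocorticoid response rose in 5 of 12 and fell in 1. Dbp, a clock output factor, read 6.5, 6.69 and 6.66, then 7.78 and 7.81 (1.18 ± 0.11), and Nr1d2, REV-ERBβ, 7.29, 7.53 and 7.21, then 8.4 and 8.43 (1.07 ± 0.12). Their ages stood about 1 unit apart. Bmal1 rose by 0.62 ± 0.11, and Fkbp5, a glucocorticoid target, fell (-0.57 ± 0.14) but not without the PND14 array of dam 7 (-0.4). Per2, a clock repressor (0.45 ± 0.13), was lost without that array (0.34) or the PND7 array of dam 13 (0.38), and Tsc22d3, a glucocorticoid target (0.33 ± 0.12), once any 1 of the 5 arrays was left out (0.3 to 0.37) or with the dam as a block (0.31). Rises numbered 3 without that array of dam 7, the PND7 array of dam 13 or the arrays of high Xist. Hours of tissue collection were not used here.

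Among 19 neuropeptide and dense-core granule genes 4 rose (21.1%) and 3 fell (15.8%), against 15.4% and 15.3% of all genes. Chgb, chromogranin B, read 8.71, 8.8 and 8.88, then 10.04 and 9.96 (1.21 ± 0.09), and Scg5, a chaperone of a prohormone convertase, rose by 0.85 ± 0.14. Penk, preproenkephalin (0.48 ± 0.14), was lost without either PND14 array (0.48 and 0.49), as was Cpe, a prohormone carboxypeptidase (0.26 ± 0.09; 0.23 and 0.28, and 0.24 with the dam as a block). The falls were in Cck, Npy and Pam, an amidating enzyme (-0.43 ± 0.13; -0.42 and -0.44 without either PND14 array). Rises numbered 2 without either PND14 array, and falls 1 without that of dam 7 and 0 without the PND7 array of dam 1. Of 12 activity-induced genes 3 rose (25.0%), Nr4a3 (0.66 ± 0.19), Dusp1 (0.55 ± 0.19) and Nr4a2 (0.47 ± 0.16), and 1 fell (8.33%), Dusp6 (-0.41 ± 0.1). None of the 3 was called without the PND14 array of dam 1 (0.66, 0.29 and 0.56), 1 of the 3 was called without each of the other 4 arrays, and Dusp6 was lost without the PND14 array of dam 7 (-0.32). Of 6 genes of antigen presentation and interferon 1 rose (B2m, 0.25 ± 0.09) and 1 fell (Psmb10, -0.26 ± 0.08), or 16.7% each. Neither was called without either PND14 array (0.21 and 0.3, -0.25 and -0.27), nor was Psmb10 with the dam as a block (-0.24).

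The age change of undosed cerebellum was then set against that of undosed hippocampus from the same dams. Both tissues of a dam and age come from 1 pup, a pairing that the main test does not use. Of 10330 probe sets, 1865 (18.1%) had age changes that differed between the tissues at an adjusted p under 0.05, 1178 (11.4%) more positive and 687 (6.65%) more negative in cerebellum. The share of these calls toward cerebellum was 63.2%, against 52.8% after quantile normalization and 82.3% with all 24 arrays so normalized. With the dam as a block, 1706 probe sets differed. The count was 416 without the arrays of high Xist, 983 without the PND14 cerebellum array of dam 1 and 1222 without that of dam 7. In hippocampus itself 30.4% of probe sets and 30.3% of genes were called between ages. The log2 ratio of 3′ to 5′ probe sets also moved with age in hippocampus, being 0.55 to 0.67 at PND7 and 0.74 to 0.89 at PND14 for Gapdh, and 0.74 to 0.87 and 1.02 to 1.21 for actin. Its part in the differences between tissues was not tested. Of the 1151 genes that rose in cerebellum 438 (38.1%) rose in hippocampus too, or 44.2% of the 990 that rose there, and 77 fell there. Of the 1147 that fell 444 (38.7%) fell there, or 34.9% of 1273, and 44 rose there. The correlation of changes across 7474 genes, which come from the same arrays and are not independent replicates, was 0.457.

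The most negative of the differences was in Fibcd1, which fell in cerebellum (7.18, 6.99 and 7.12, then 5.63 and 5.29) and rose by 1.64 ± 0.15 in hippocampus, a difference of -3.27 ± 0.23 (limma adjusted p 8.55e-09). Gabra6 was at 6.34 in hippocampus at PND7 and 6.46 at PND14, which puts the difference of its changes at 3.84 ± 0.38. Syt4 rose by 1.58 in cerebellum and fell by 1.08 in hippocampus (difference 2.66 ± 0.18), and Slc1a6 rose by 1.89 and fell by 0.6 (difference 2.49 ± 0.17). Fibcd1, Syt4 and Slc1a6 were called in both tissues and moved in opposite directions. The hippocampus means of Slc1a6, 6.77 at PND7 and 6.17 at PND14, lay within the range of the genes of other organs. Its fall there is thus near the level of signal without expression. Nefm fell in cerebellum and rose by 0.67 in hippocampus, with a difference of -1.66 ± 0.16.

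Pvalb rose in both tissues, by 1.66 ± 0.2 in hippocampus and 2.38 ± 0.29 more in cerebellum. Synpr (2.38 ± 0.37 more) and Olfm3 (2.28 ± 0.44 more) rose in cerebellum and were not called in hippocampus. Epha4 changed by -1.7 ± 0.18 and Dscc1 by -1.53 ± 0.23 relative to hippocampus, where neither was called. Mbp rose in both, and its change was 1.73 in cerebellum and 3.7 in hippocampus, a difference of -1.97 ± 0.39 that was lost without the arrays of high Xist (-1.87). At PND7 Mbp read 10.95 to 11.86 in cerebellum and had a mean of 8.74 in hippocampus. Htr2c differed by -2.29 ± 0.52, also not called without those arrays (-1.67).

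Over all 7474 genes, 9.97% changed more positively and 7.16% more negatively in cerebellum than in hippocampus at a limma adjusted p under 0.05. By list, 7 of 8 genes chosen as marks of cerebellar identity differed. The change was more positive in cerebellum in 6 of them (median changes 1.08 there and 0.14 in hippocampus). Because these genes were chosen as marks of cerebellum, this difference is partly built into the list. They also belong to the granule cell or Purkinje lists, so the counts by list are not independent. Mature granule cell markers changed more positively in cerebellum in 11 of 18 (1.32 and 0.16), and Purkinje markers in 7 of 18, with 3 more negative (0.57 and 0.09). Young neuron genes differed in 10 of 20 toward cerebellum and in 1 the other way, their median being -0.03 in cerebellum and -0.44 in hippocampus. Neurod1 is an example, rising by 0.63 in cerebellum and changing by -0.69 in hippocampus. Mitosis genes changed more negatively in cerebellum in 10 of 28 (medians -0.89 and -0.36) and replication genes in 8 of 24 (-0.68 and -0.28). Myelin genes differed in 1 of 17, Mbp, with medians of 1.0 and 1.07, and ribosomal protein genes in 1 of 39 (-0.31 and -0.47). Sodium channel genes differed toward cerebellum in 6 of 14, GABA and glycine genes in 8 of 19 and calcium genes in 13 of 43. The other way differed 6 calcium genes and 1 sodium channel gene.

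**Figure D5:**
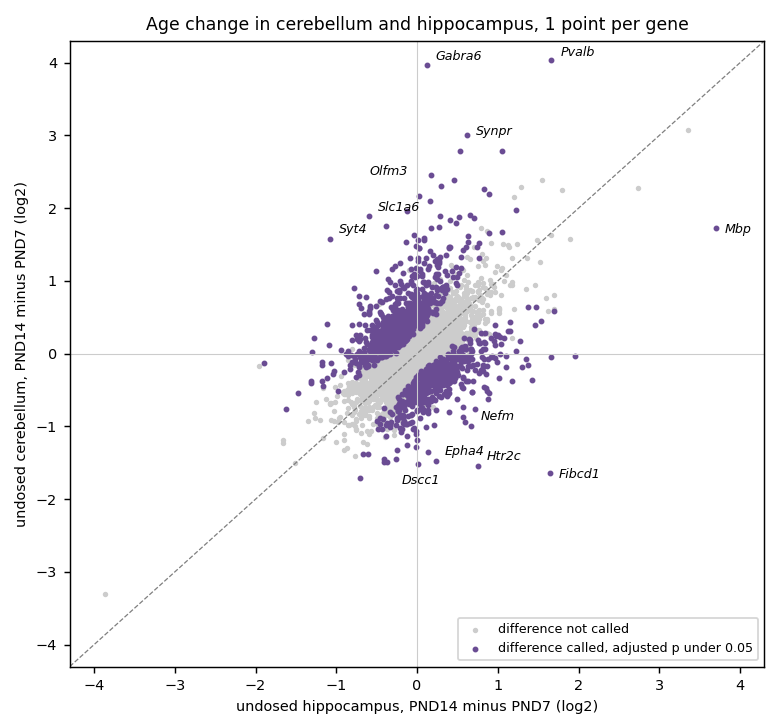
Change in log2 value from PND7 to PND14 in undosed hippocampus (horizontal) and undosed cerebellum (vertical) for 7474 genes, with genes whose changes differed in purple, the line of equal change dashed and 12 genes labelled. Gabra6 lies at 0.12 and 3.96, Fibcd1 at 1.64 and -1.64, and Mbp at 3.7 and 1.73.

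Dosed cerebellum, which has 3 arrays at each age and shares no pup with the undosed groups, was then compared. Its own age change was called in 33.4% of probe sets and 34.0% of genes. In its PND14 array of dam 12 the log2 ratio of 3′ to 5′ probe sets was 0.8 for Gapdh and 0.93 for actin. In the PND14 arrays of dams 15 and 18 it was 0.49 to 0.58 and 0.7 to 0.75. Of the genes that rose in undosed cerebellum 859 (74.6%) rose in dosed cerebellum, or 75.1% of 1144, and of those that fell 847 (73.8%) fell, or 60.5% of 1399. No gene was called in opposite directions, and r across 7474 genes was 0.872. Pvalb rose by 4.02, Gabra6 by 3.26 and Mobp by 2.92 in dosed pups. Median changes in dosed pups were -1.35 for mitosis genes, 1.06 for mature granule cell markers and 0.96 for myelin genes. Choroid plexus and red cell markers, lower in undosed pups, had medians of -0.01 and 0.48 in dosed pups, and Htr2c a change of 0.03.

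The age change differed with dosing in 1 of 10330 probe sets (0.00968%) at an adjusted p under 0.05, against 667 at an unadjusted p under 0.05. That probe set belongs to Lig3, a DNA ligase of single-strand break repair. It read 7.28, 7.21 and 7.18, then 7.77 and 7.57, in undosed pups (0.45 ± 0.1), and its means were 7.66 and 7.29 in dosed pups, a difference of 0.82 ± 0.13 (limma adjusted p 0.0382). The undosed change was upward without overlap and the dosed change downward. It is not the probe set with the highest mean of that gene, and it was not called with any 1 cerebellum array left out or without the arrays of high Xist. Without the dosed PND14 array of dam 12, 1406 probe sets had an unadjusted limma p under 0.05 for the difference with dosing. The part of RNA integrity was not tested.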

How the data were processed

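RNA of single pups was measured on 24 arrays. The log2 value of each probe set was used as deposited by the authors, with its software, summary method and normalization not given in the sources used here. Of 15923 probe sets 57 controls were left out; 12783 carry 1 gene symbol, 312 several and 2771 none in the platform annotation, and 12748 were matched to RefSeq.

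A probe set was tested if it was above its array's 40th percentile in at least 3 arrays. One mean per group was fitted over 23 arrays with limma 3.58.1 in R 4.3.3 (residual df 15), with empirical Bayes moderation and Benjamini-Hochberg adjustment over 10330 probe sets. Differences of age changes between tissues or dosing groups are contrasts of the same fit. A gene is read from its tested probe set with the highest mean. Of the genes named, other probe sets of Dlg4 turned its sign. With the median of a gene's probe sets, Cacng2, Gabbr1, Nr4a2, Nr4a3, Plxna1 and Shank2 were no longer called. The procedure was tested on simulated data.

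Members of a gene list below that filter are not described by the counts of members tested. A summed level adds the linear values of all list members on the array, whatever the filter. The gene lists, the comparison and its rule were chosen with earlier results of these data known. Genes named are the 15 largest rises and falls without overlap between ages, and the 4 largest called changes of each list. Further called members of the cell type and receptor lists were named too. So were both genes of developmental switch pairs, the 6 largest called differences by tissue in each direction, and cell type markers. Where 5 or fewer members of a list moved one way, they were named after their values were seen. Some called members of a list stay unnamed.

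Pups of 1 dam are littermates, so the dam pairs the ages: deviations of same-dam arrays correlated at -0.017 (dam 1) and 0.15 (dam 7). Alternatives were quantile normalization, all 24 arrays, other filters, an intensity trend, fewer groups in the fit, the dam as a block, the median of a gene's probe sets and each array left out; leaving out the 4 arrays of high Xist was chosen after seeing the data. With 3 arrays against 2, the number of arrays limits the precision.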

Additional observations from a re-analysis of the deposited data

Results flagged for a closer look

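The age change of undosed cerebellum differed from that of undosed hippocampus in 1865 probe sets by limma's test of the difference itself. Among the genes named for it, those with the more positive change in cerebellum were Gabra6 (difference 3.84), Syt4 (2.66), Slc1a6 (2.49), Pvalb (2.38), Synpr (2.38) and Olfm3 (2.28). Those with the more negative change were Fibcd1 (-3.27), Htr2c (-2.29), Mbp (-1.97), Epha4 (-1.7), Nefm (-1.66) and Dscc1 (-1.53). Between undosed and dosed cerebellum the test of the difference called 1 probe set, of Lig3. Groups of 3 or fewer arrays were not screened for single outlying values.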

How the results depend on the processing

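The 3188 probe sets called between ages became 3355 after quantile normalization, 1563 of them higher and 1792 lower. They became 3482 without a filter, 2699 with a stricter one, 3209 with an intensity trend and 2845 with cerebellum alone. With only the 2 groups compared 4077 were called, and with the dam as a replicate block 3067. With all 24 arrays quantile normalized, 2537 were called between ages, 899 of them lower, and 802 differed from hippocampus (660 higher, 142 lower), against 1865. With only the groups compared, 2849 differed from hippocampus, 1096 of them lower. Without the arrays of high Xist, 1470 were called between ages (858 higher, 612 lower; 1045 genes), and 416 differed from hippocampus (255 higher, 161 lower). With 1 array left out at a time, limma called 1873 to 2769 between ages (1121 to 1551 higher, 746 to 1243 lower; 1327 to 2001 genes) and 983 to 1761 against hippocampus (627 to 1143 higher, 356 to 618 lower). The 1 probe set that differed with dosing gave way to 0 by limma under quantile normalization, all 24 arrays, the stricter filter, the trend, cerebellum alone, only the groups compared and without the arrays of high Xist, where 695, 701, 464, 675, 528, 528 and 181 had an unadjusted p under 0.05, and to 0 without any 1 cerebellum array (305 to 1406 at an unadjusted p under 0.05). Of 236 named calls, 228 were kept after quantile normalization, 157 without the arrays of high Xist, 223 with the dam block, and 181 and 174 without the PND14 array of dam 1 or dam 7; the dam block changed no other call of a named gene than those given and those of Barhl1 and Gabbr1. With all 24 arrays the sign turned for Abat (-0.15), Cadps2 (-0.11), Cck (0.2), Cox6c (-1.86), Cox8a (-2.19), Cpe (-1.62), Cspg4 (0.1), Dlg3 (-0.7), Eno2 (-0.49), Gabbr1 (-1.99), Got1 (-1.26), Grin2a (0.1), Grin2b (0.17), Id2 (-0.42), Idh3b (-0.71), Mtss1 (-1.86), Neurod1 (-0.49), Nptxr (-1.04), Npy (0.04), Sc5d (-0.8), Scn1a (-0.0), Shank3 (-0.63), Slc6a8 (-0.98) and Stmn3 (-1.75), and with the median of its probe sets for Dlg4 (-0.06); the cause was not tested.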
